A study of Mus musculus with 8 samples.

Results

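Primordial germ cells (PGCs), from which eggs and sperm descend, can be imitated in culture by PGC-like cells (PGCLCs), which are made from embryonic stem cells by way of epiblast-like cells. Aggregate PGCLCs were compared here with PGCs taken from mouse embryos at E9.5. The comparison used the 2 PGCLC libraries and the 2 E9.5 PGC libraries among the 8 libraries of the study, and the 11083 of 20153 genes that reached 1 FPKM (fragments mapped to a gene, divided by its length in kilobases and by the library's mapped total) in at least 2 of the 8 libraries. The E9.5 PGCs were endogenous cells at P0 of the strain Oct4gfpXCD1, with about 250 cells in each library. The PGCLCs came from BVSC embryonic stem cells at P21, kept in 2i and LIF on laminin, taken through epiblast-like cells and grown in aggregates, with 300 to 500 cells in each library. BVSC cells carry reporter transgenes for Blimp1 and Stella. The day of aggregate culture is not given in the sources used here, and neither is any sorting of the PGCLCs. Strain, passage, culture against embryo and cell number all differed between the groups and cannot be told apart. Values of the other groups are given where they help. The iPGCs were made from BVSC embryonic stem cells at P21 by a hanging drop method, with 1500 cells in each library. Embryonic germ cell (EGC) lines 4 and 7 were derived from sorted E9.5 PGCs of the strain Oct4gfpXCD1 and were at P6, with 500 cells in each library. The labels call the 2 libraries of a group biological replicates, without saying whether they came from separate embryos or cultures, so p-values measure the spread between these libraries.

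Mouse PGCs are set aside from the epiblast by BMP signals acting through the transcription factors Prdm1, Prdm14 and Tfap2c. They keep or regain many genes of pluripotency, erase DNA methylation as they migrate along the hindgut towards the gonads, and switch on genes of later germ cells, such as Dazl, once the promoters of those genes lose methylation. PGCLCs are known for passing through the early steps of this course in culture.

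In the test across all genes, 117 of 11083 genes differed between PGCLCs and E9.5 PGCs (1.06%; limma on log2(FPKM + 1), Benjamini-Hochberg adjusted p under 0.05). Of these, 104 were higher (0.938%) and 13 lower (0.117%) in PGCLCs. The higher genes included the germ cell RNA-binding factor Dazl, the pluripotency factor Nanog, the Nodal co-receptor Tdgf1, the mitochondrial fatty acid enzyme Acadvl and the metal-binding protein Mt2. The lower genes included the surface glycoprotein gene Cd24a, the Hippo pathway kinase Lats2 and the X-inactivation RNA Xist. Differences of called genes ran from 2.45 to 8.07 on the log2(FPKM + 1) scale for higher genes and from -2.80 to -8.11 for lower genes. The median difference of all tested genes was 0.44, and a test against that median in place of 0 was run beside the plain one. Of all 117 called genes, 47 also passed that test, and of the 43 called genes named by the rule given below, 27 did. Called list members that did not are named with their adjusted p below. The gene lists were chosen with earlier results of these data known. A share of called members above the 1.06% of all genes is therefore no separate support for a list. The further called genes given after their values were seen are listed without that test. In bulk RNA, fewer cells that express a gene and less RNA of that gene in each cell cannot be told apart.

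**Figure D1:**
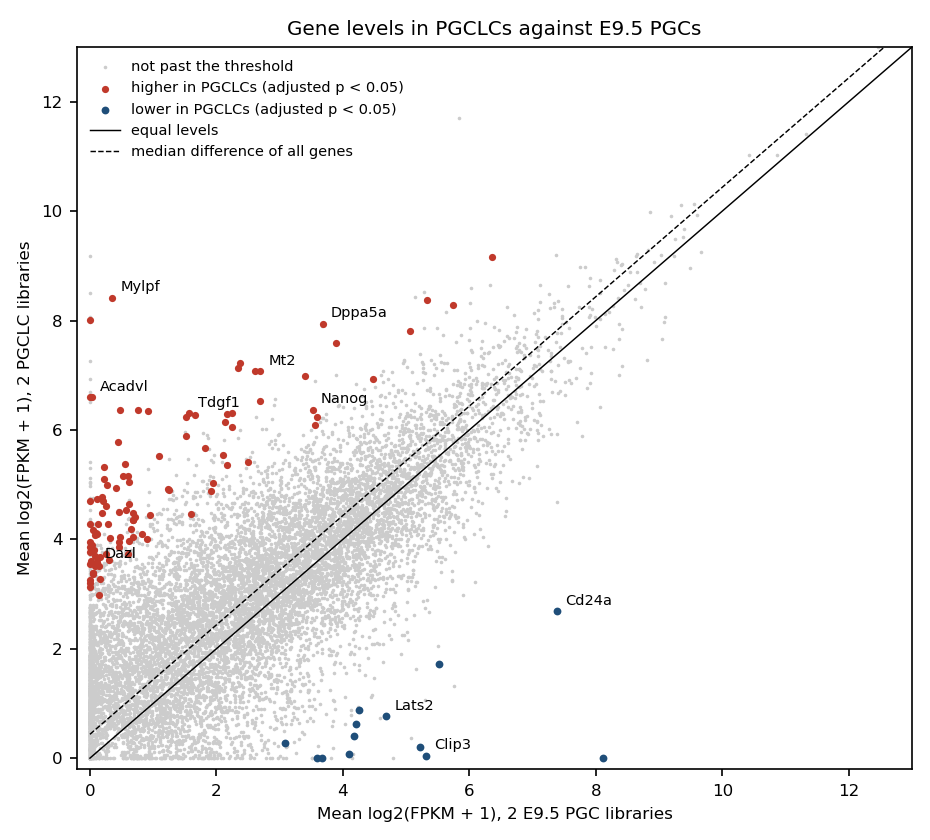
Each point is 1 tested gene, with its mean log2(FPKM + 1) over the 2 E9.5 PGC libraries on the horizontal axis and over the 2 PGCLC libraries on the vertical axis. Red points are the 104 genes called higher and blue points the 13 called lower in PGCLCs. The solid line marks equal levels and the dashed line the median difference of 0.44. Most higher genes lie near the left edge, where PGC levels are low, and Cd24a is the most abundant of the labelled genes below the lines.

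Most called rises started from little or no signal in PGCs. Of the 104 higher genes, 59 were under 1 FPKM in both PGC libraries, 10 were listed at 0 in both and 23 in exactly 1 of them. Among all tested genes, 1258 and 1464 were listed at 0 in PGC libraries 1 and 2, against 826 and 308 in PGCLC libraries 1 and 2. The PGC libraries held 8259 and 7991 genes at or above 1 FPKM, and the PGCLC libraries 9157 and 9722. Some genes of DNA replication and the cell cycle were among those near 0 in PGCs. Pold2, a subunit of DNA polymerase delta, was at 1.48 and 0.16 FPKM in the E9.5 PGC libraries and 134 and 48.6 FPKM in the PGCLC libraries. The cell cycle kinase gene Cdk2, which was not called, had no value above 0 in either PGC library, against 3.75 and 7.41 FPKM in PGCLCs. A listed 0 can be a failed estimate, and the part of such missing values in the called rises was not tested. Read totals are not stated, and steps between low values gave rough depths of 15.2 and 13.5 M reads for PGCs and 7.31 and 14.3 M reads for PGCLCs.

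The PGC libraries also differed from each other in transcripts of other embryonic cells. Summed over 17 blood and myeloid markers, PGC library 1 held 163 FPKM and PGC library 2 held 14.6, against 22.2 and 2.41 in the PGCLC libraries. For 16 extraembryonic endoderm markers the sums were 336 and 137 in PGCs and 148 and 137 in PGCLCs, and for 16 neural markers 98.4 and 8.52 against 15.8 and 22.5. For 17 fibroblast and mesenchyme markers they were 181 and 88.9 in PGCs and 81 and 59.5 in PGCLCs. PGC library 1 was thus the highest of the 4 for these lists. In it 11 of the 17 blood markers reached 1 FPKM, against 2 in PGC library 2 and 1 and 0 in the PGCLC libraries, and Tyrobp, Spi1 and C1qb were listed at 0 in all 4. Of the 16 neural markers, 7 reached 1 FPKM in PGC library 1, 3 in PGC library 2 and 5 and 4 in the PGCLC libraries, with Sox1 at 0 in all 4. The PGCLC libraries had the higher sums for 3 lists. For 13 trophoblast markers the sums were 56.7 and 28.3 FPKM in PGCLCs, where 4 and 5 of them reached 1 FPKM, and 11.8 and 1.99 in PGCs, where 2 and 1 did. The trophoblast markers Krt7, Plac1, Prl3d1 and Tpbpa were listed at 0 in all 4 libraries. For 14 endothelial markers the sums were 134 and 98.5 in PGCLCs and 31 and 63.7 in PGCs. Of these markers 5 and 5 reached 1 FPKM in PGCLCs, and 5 and 2 in PGCs. Sox7 was listed at 0 in all 4 libraries, and Kdr, Tie1 and Emcn in both PGCLC libraries. The sums include Pecam1, which is also on the naive pluripotency and germ cell surface lists. The sums of gut endoderm are given below with Cldn4. Of the tested members of the 6 lists summed here, the myeloid protein gene S100a9 was the 1 called, with a limit given below, against 1.06% of all genes. The part of these markers in the comparison was not tested, and without PGC library 1 the fit called 59 genes (56 higher, 3 lower).

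**Figure D2:**
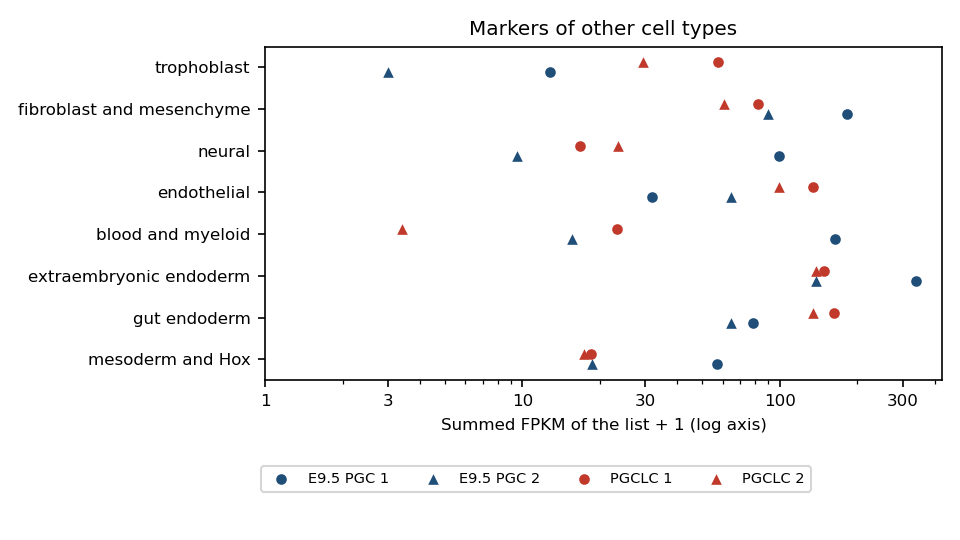
Summed FPKM, plus 1 and on a log axis, of markers of 8 other cell types in PGC library 1 (circle) and 2 (triangle), in blue, and in PGCLC library 1 and 2, in red. PGC library 1 has the highest sum for the mesoderm, extraembryonic endoderm, blood, neural and fibroblast lists, with 163 FPKM for blood against 14.6 in PGC library 2. The PGCLC libraries are the higher ones for the trophoblast, endothelial and gut endoderm lists.

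The count of called genes depended on which libraries and which scale entered the test. The same fit called 289 genes without PGC library 2 (224 higher, 65 lower), 34 without EGC line 4, 38 without EGC line 7, and 5 without either iPGC library. Without PGCLC library 1 or PGCLC library 2, limma called 0 genes, with 1471 and 2061 at an unadjusted p under 0.05. A fit of the 4 compared libraries alone also called 0, with 1438 genes at an unadjusted p under 0.05, against 2156 in the fit of all 8 libraries. With the library medians made equal the calls were 54, of which 36 were higher and 18 lower, and a test against the median difference in place of 0 gave 49, of which 35 were higher and 14 lower. All 117 called genes had both PGCLC libraries on the same side of both PGC libraries, which for any tested gene held in 33.4% upwards and 11.8% downwards.

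**Figure D3:**
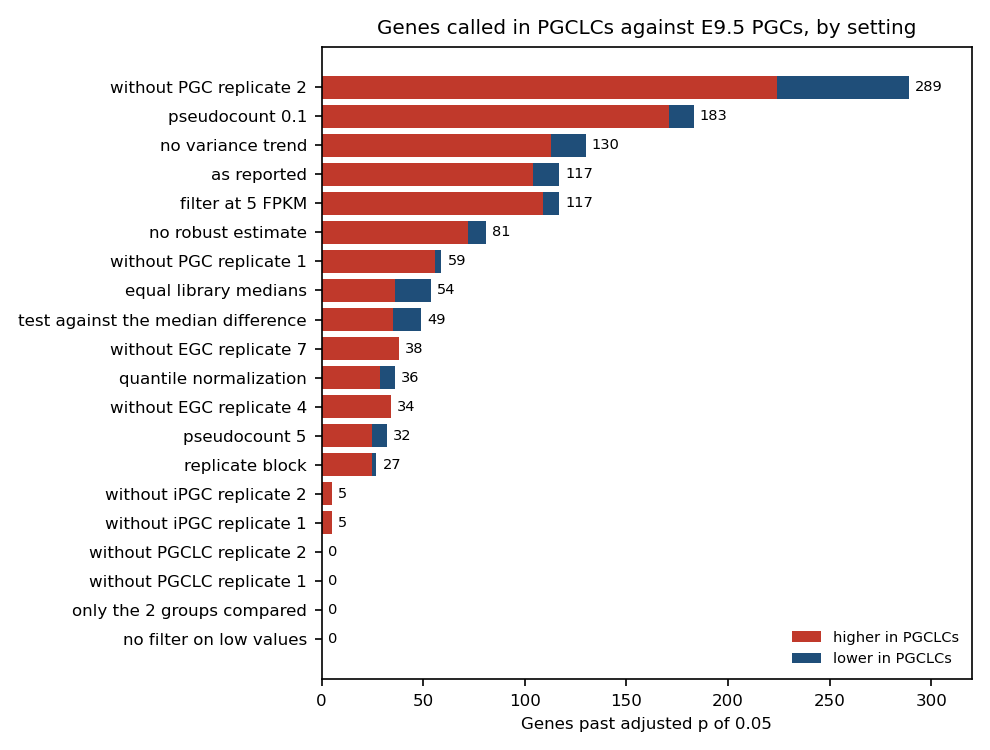
Bars give the number of genes past an adjusted p of 0.05 in PGCLCs against E9.5 PGCs, higher in red and lower in blue, in the fit as reported (117) and under each alternative setting. Counts range from 0, when either PGCLC library is left out, when the 4 libraries are fitted alone or when no filter is used, to 289 without PGC library 2.

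The 4 genes marked for this comparison were called, 3 higher and 1 lower. Dazl (chr17:50279395-50293636, GRCm38), which encodes an RNA-binding protein needed as germ cells enter sexual development, was at 0 and 0.156 FPKM in the E9.5 PGC libraries and 11.9 and 9.65 FPKM in the PGCLC libraries. Both PGCLC libraries were far above both PGC libraries, in which the gene was at or near 0 (log2 difference 3.45, SE 0.57, adjusted p = 0.042). Dazl was at 4.26 and 7 FPKM in iPGCs and 1.12 and 0.805 FPKM in EGC lines 4 and 7, so PGCLCs held the highest levels of the series. The promoter of Dazl, shown because loss of promoter methylation is what is known to open this gene, holds 28 CpG pairs in 300 bases, against a median of 7 (quartiles 3 and 20) over 32851 mouse promoters of that length. DNA methylation was not among the values used here. Sequences run 5′ to 3′ from 250 bases before to 50 after the start site (RefSeq, GRCm38.p6), here with each CpG in capitals.
Dazl promoter (chr17:50293571-50293870, minus strand): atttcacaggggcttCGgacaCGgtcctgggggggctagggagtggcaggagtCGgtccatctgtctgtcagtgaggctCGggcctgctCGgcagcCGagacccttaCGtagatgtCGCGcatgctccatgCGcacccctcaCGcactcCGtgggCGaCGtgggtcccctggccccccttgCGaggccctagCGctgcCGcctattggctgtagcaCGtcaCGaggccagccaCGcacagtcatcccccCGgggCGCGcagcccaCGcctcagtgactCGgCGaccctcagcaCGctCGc

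Acadvl (chr11:70010183-70015411), the very long chain acyl-CoA dehydrogenase that opens mitochondrial oxidation of long fatty acids, was at 0 and 0.0471 FPKM in the E9.5 PGC libraries and 107 and 85.9 FPKM in the PGCLC libraries. This was the second largest rise of the genes named by rule (log2 difference 6.57, SE 0.63, 6.13 relative to the median, adjusted p = 0.0165). The iPGC libraries lay between, at 20.3 and 47.6 FPKM, and the EGC lines at 1.93 and 5.52 FPKM. Acadvl overlaps Dvl2 and Mir324 on the opposite strand, and whether counting used strand is not given in the sources used here.

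Nanog (chr6:122707489-122714633), a transcription factor of the inner cell mass and of PGCs, was at 6.69 and 16.1 FPKM in the E9.5 PGC libraries and 81.2 and 82.6 FPKM in the PGCLC libraries (log2 difference 2.85, SE 0.48, adjusted p = 0.042). The PGCLC libraries were nearly equal and above both PGC libraries, while iPGCs were at 73.2 and 90.9 FPKM and EGCs at 46.9 and 45.3 FPKM. Cd24a (chr10:43578284-43584265), a small surface glycoprotein of progenitor cells, went the other way, with 163 and 169 FPKM in the E9.5 PGC libraries and 1.97 and 13 FPKM in the PGCLC libraries (log2 difference -4.69, SE 0.68, adjusted p = 0.0275). The PGC libraries were close together and far above every other library of the series, since iPGCs were at 20.4 and 23 and EGCs at 13.4 and 14 FPKM. Relative to the median difference of all genes, Acadvl and Cd24a kept their call (adjusted p = 0.0292 for each), whereas Dazl (0.0769) and Nanog (0.0791) did not pass.

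No gene of early PGC specification and identity was called. Of the 16 tested members of 20, 2 had both PGCLC libraries above both PGC libraries and 3 below. The shares over all genes were 33.4% above and 11.8% below. The median difference of the list was -0.25 relative to all genes. Prdm1, which represses the somatic programme, was at 14.9 and 42.5 FPKM in the E9.5 PGC libraries and 40.6 and 33 FPKM in the PGCLC libraries. Tfap2c, its partner, was at 23.1 and 30.2 FPKM in PGCs and 37 and 30.4 FPKM in PGCLCs. Dppa3 (Stella), a maternal factor that guards against methylation changes, was at 409 and 574 FPKM in PGCs and 726 and 399.6 FPKM in PGCLCs. For these 3 genes the groups overlapped or nearly touched. Nanos3, an RNA-binding factor that protects migrating PGCs, was at 7.37 and 22.3 FPKM in PGCs and 6.98 and 2.3 FPKM in PGCLCs (adjusted p = 0.364). The let-7 inhibitor Lin28a was at 16.2 and 38.5 FPKM in PGCs and 11.2 and 6.87 FPKM in PGCLCs (adjusted p = 0.204). In both, the PGCLC libraries were the lower ones without passing the test. The receptor kinase gene Kit, at 35 and 96.5 FPKM in PGCs and 49.3 and 30.4 FPKM in PGCLCs, overlapped between groups. The interferon-induced membrane protein gene Ifitm2, at 37.5 and 86.8 FPKM in PGCs and 203 and 219 FPKM in PGCLCs, was higher in both PGCLC libraries and did not pass (adjusted p = 0.124).

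Among 22 tested genes of later germ cells, Dazl was the 1 called, against 1.06% of all genes. Both PGCLC libraries were above both PGC libraries for 11 of the 22, against 33.4% of all genes, and below for 1, against 11.8%. The median was 0.85 relative to all genes. Asz1, a component of the piRNA pathway, was at 0.0271 and 0.123 FPKM in the E9.5 PGC libraries and 10.8 and 4.59 FPKM in the PGCLC libraries (adjusted p = 0.0573). The meiotic cohesin gene Smc1b was at 0.0366 and 0.546 FPKM in PGCs and 8.45 and 10.2 FPKM in PGCLCs (adjusted p = 0.0545). Both were just outside the threshold, with groups that did not overlap. Sycp3, of the synaptonemal complex, was at 0 and 0.496 FPKM in PGCs and 4.11 and 6.45 FPKM in PGCLCs. Stra8, the retinoic acid target at meiotic entry, was at 0 and 0 FPKM in PGCs and 0.77 and 12 FPKM in PGCLCs, with most of its signal in 1 PGCLC library. Other members did not share this pattern. The helicase gene Ddx4 (Vasa) was at 6.1 and 0.0183 FPKM in PGCs and 10.1 and 3.2 FPKM in PGCLCs, with overlapping groups. Tex15, needed for meiosis in males, was at 18.5 and 9.52 FPKM in PGCs and 3.18 and 2.6 FPKM in PGCLCs, with PGCLCs lower. Mov10l1, a helicase of the piRNA pathway, was listed at 0 in PGC library 1 and at 23.3 FPKM in PGC library 2, a spread wider than that between the groups.

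Promoters of this list often held short motifs bound by known repressors of germ cell genes. The E-box CACGTG, bound by Max with Mga, was found in 16 of the 31 promoters that RefSeq gives for 26 genes of the list (51.6%), against 7.15% of all 32851 promoters. TCCCGC, the site of E2f6, was found in 13 of the 31 (41.9%), against 20% of all, each searched on both strands. Some of these genes have more than 1 promoter, in part with overlapping windows. Counted by gene, CACGTG was found in 13 of the 26 and TCCCGC in 12. Both motifs contain a CpG, and most promoters of the list hold more CpG than the median of 7 over all promoters. The shares were not adjusted for CpG content. The Dazl promoter printed above held neither motif in its 300 bases. A match describes letters in the window and is no measure of binding. Among the repressor genes themselves, 16 members of PRC1.6 and related factors, none was called, and the median was 0.16. Mga was at 67.6 and 176 FPKM in PGCs and 70.5 and 67.1 FPKM in PGCLCs, with overlapping groups. The deacetylase gene Hdac1, at 13.2 and 28.7 FPKM in PGCs and 104 and 78.7 FPKM in PGCLCs, was higher in both PGCLC libraries and did not pass (adjusted p = 0.0815).

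Among 15 core pluripotency genes, 3 rose and none fell, against 1.06% of all genes called. Of the 3, only Tdgf1 also passed against the median difference (adjusted p = 0.0482, with 0.0791 for Nanog and 0.0769 for Dppa2, limma). Besides Nanog these were Tdgf1 (Cripto), a cell surface co-receptor of Nodal, and Dppa2, a chromatin factor of the early embryo. Tdgf1 was at 0.534 and 4.78 FPKM in the E9.5 PGC libraries and 95.7 and 64 FPKM in the PGCLC libraries (log2 difference 4.74, adjusted p = 0.0273), with iPGCs at 14.2 and 6.54 and EGCs at 189 and 145 FPKM. Its PGCLC levels thus lay above both iPGC libraries and below both EGC lines. Dppa2 was at 0.288 and 0.505 FPKM in PGCs and 12.6 and 18.8 FPKM in PGCLCs (log2 difference 3.56, adjusted p = 0.042). The central factors of pluripotency were not called. Pou5f1 (Oct4) was at 24.7 and 72.1 FPKM in PGCs and 327 and 48.6 FPKM in PGCLCs, with 1 high PGCLC library. Sall4, a zinc finger transcription factor, was at 193 and 194 FPKM in PGCs and 99.5 and 133 FPKM in PGCLCs. Sox2, the partner of Pou5f1, averaged 31.1 FPKM in PGCs and 18.4 FPKM in PGCLCs. Lin28b, the paralog of Lin28a, was at 15.2 and 6.34 FPKM in PGCs and 1.65 and 1.02 FPKM in PGCLCs (adjusted p = 0.112). These last 3 were lower in both PGCLC libraries without passing, and the median of the list was 0.10 relative to all genes.

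Of 20 genes on the naive pluripotency list, 3 rose, against 1.06% of all genes called. Both PGCLC libraries lay above both PGC libraries for 13, against 33.4% of all genes. Of the 3, only Dppa5a also passed against the median difference (adjusted p = 0.0469, with 0.0829 for Fgf4 and 0.0654 for Manba, limma). Dppa5a, an RNA-binding protein known from pluripotency, was at 6.78 and 20.1 FPKM in the E9.5 PGC libraries and 315 and 191 FPKM in the PGCLC libraries (log2 difference 4.26, adjusted p = 0.0273). The growth factor gene Fgf4 was at 1.27 and 0.044 FPKM in PGCs and 17.7 and 12 FPKM in PGCLCs (log2 difference 3.34, adjusted p = 0.0481). Manba, which is on the list but encodes a lysosomal mannosidase and no pluripotency factor, was at 1.71 and 1.08 FPKM in PGCs and 26 and 32.1 FPKM in PGCLCs (log2 difference 3.65, adjusted p = 0.0378). In all 3 both PGCLC libraries were several times above both PGC libraries. The F-box gene Fbxo15 was at 1.94 and 10.4 FPKM in PGCs and 40.6 and 48.2 FPKM in PGCLCs and did not pass (adjusted p = 0.0815). Zfp57, a zinc finger gene that protects imprints, was at 21.6 and 0.936 FPKM in PGCs and 109 and 37 FPKM in PGCLCs, again with PGCLCs higher and no call. The nuclear receptor gene Esrrb, at 26.6 and 34.3 FPKM in PGCs and 42.2 and 44.4 FPKM in PGCLCs, was close between groups, and the median of the list was 0.80. None of 15 primed epiblast and Nodal genes was called (median 0.49). Fgf5, a marker of the primed epiblast, was at 1.11 and 0 FPKM in PGCs and 0.0518 and 0 FPKM in PGCLCs, near 0 in most libraries. Otx2 was at 0 and 0 FPKM in PGCs and 29 and 0.487 FPKM in PGCLCs, with nearly all of it in 1 PGCLC library.

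**Figure D4:**
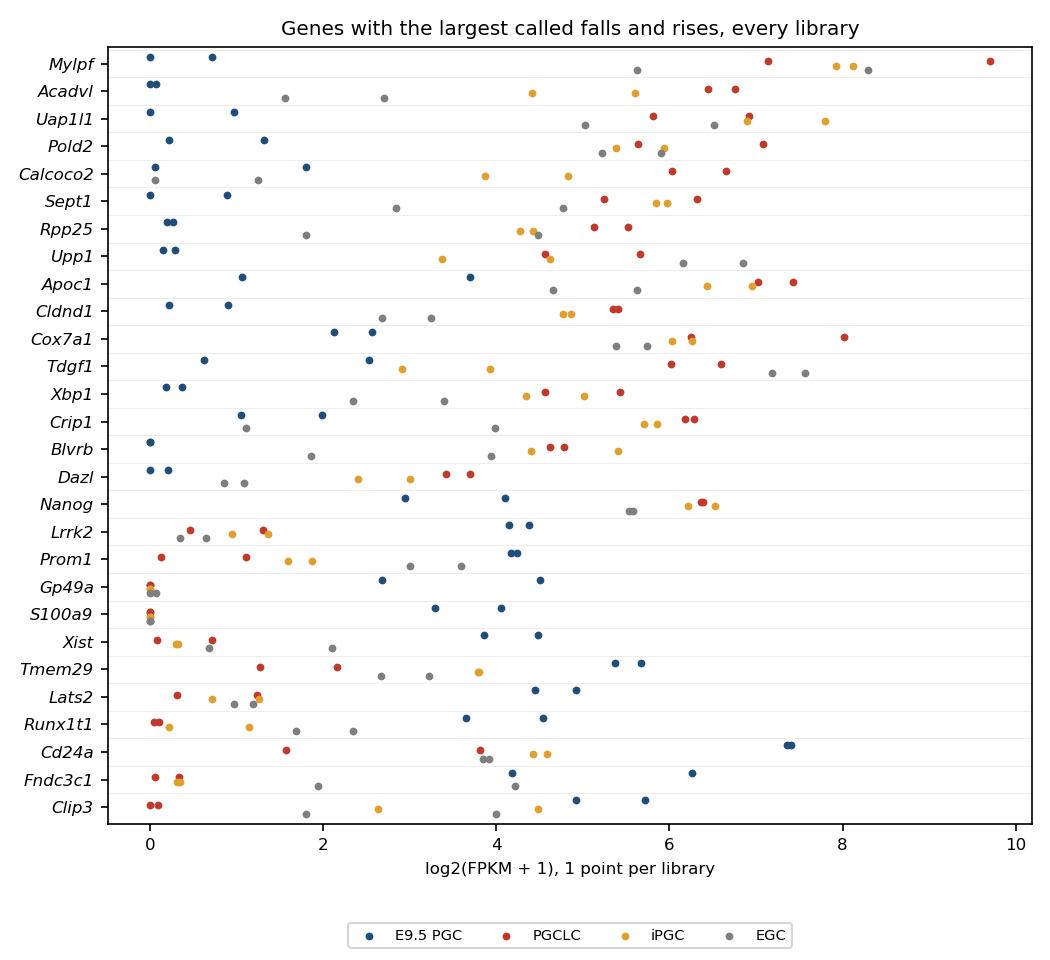
Each point is log2(FPKM + 1) in 1 library, for the 15 largest called rises, the 11 largest called falls and the markers Dazl and Nanog, ordered by their difference. Blue points are E9.5 PGC libraries, red PGCLC, yellow iPGC and grey EGC. In every row the red points lie on 1 side of the blue ones, which the naming rule required of the rises and falls. Cd24a stands apart with 163 and 169 FPKM in PGCs, above all other libraries.

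Genes that act on DNA methylation contained 1 called gene of 22, against 1.06% of all genes. Dnmt3l, the inactive cofactor that stimulates the de novo methyltransferases, was listed at 0 in either PGC library, against 13.4 and 15.6 FPKM in PGCLCs (adjusted p = 0.0351). It did not pass against the median difference (adjusted p = 0.0586). Dnmt3l was at 51.8 and 53.4 FPKM in iPGCs and 14.1 and 42.5 FPKM in EGCs, and it overlaps Aire on the opposite strand. Its partner enzymes were not called. Dnmt3a was at 60.4 and 37.5 FPKM in PGCs and 24 and 16.8 FPKM in PGCLCs, with PGCLCs lower. Dnmt3b was at 4.52 and 0.141 FPKM in PGCs and 11.6 and 8.44 FPKM in PGCLCs, with PGCLCs higher. The maintenance methyltransferase gene Dnmt1, at 49.5 and 66.7 FPKM in PGCs and 67.9 and 46.1 FPKM in PGCLCs, overlapped between groups. Uhrf1, its cofactor, was at 13.5 and 2.08 FPKM in PGCs and 46 and 24.1 FPKM in PGCLCs and the related Uhrf2 at 30.6 and 93.5 FPKM in PGCs and 6.62 and 23.3 FPKM in PGCLCs, so they lay on opposite sides without passing. The dioxygenase gene Tet1 was at 114 and 72.1 FPKM in PGCs and 234 and 93.9 FPKM in PGCLCs, and the median of the list was -0.47 relative to all genes.

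No member of 28 histone methylation and Polycomb genes was called, and their median was -0.02. The Polycomb subunit gene Suz12 was at 14.4 and 32.4 FPKM in the E9.5 PGC libraries and 124 and 96.1 FPKM in the PGCLC libraries (adjusted p = 0.0613). Kdm5b, an H3K4 demethylase, was at 22.5 and 11.2 FPKM in PGCs and 61.2 and 69.6 FPKM in PGCLCs (adjusted p = 0.0876). Both were higher in both PGCLC libraries, but not beyond the threshold. Ezh2, the catalytic partner of Suz12, was at 87.5 and 79.3 FPKM in PGCs and 129.9 and 92.2 FPKM in PGCLCs, a smaller gap.

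Imprinted genes, which are expressed from 1 parental allele and lose their imprints in PGCs, gave no call among 12 maternally and 17 paternally expressed members. The medians were -0.67 and -0.83 relative to all genes. Nnat was at 19.6 and 23.3 FPKM in PGCs and 0.798 and 3.21 FPKM in PGCLCs (adjusted p = 0.077). Peg10, a gene derived from a retrotransposon, was at 97.7 and 51 FPKM in PGCs and 8.56 and 33.7 FPKM in PGCLCs. In both of these paternally expressed genes the PGCLC libraries were the lower ones. Igf2, a growth factor gene, was at 81 and 9.13 FPKM in PGCs and 4.24 and 87.7 FPKM in PGCLCs, with 1 high library in each group. Of the maternally expressed genes, H19 was at 111 and 49.4 FPKM in PGCs and 117 and 244 FPKM in PGCLCs. The tetraspanin gene Cd81 was at 10.4 and 10.9 FPKM in PGCs and 48.1 and 31.8 FPKM in PGCLCs, and for both the PGCLC libraries were the higher ones.

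Genes of fatty acid oxidation and handling held 4 called members of 30 tested (13.3%), against 1.06% of all genes. Besides Acadvl these were Hadh, a mitochondrial hydroxyacyl-CoA dehydrogenase, Ehhadh, the peroxisomal bifunctional enzyme, and Fabp3, a fatty acid carrier. Hadh was at 1.99 and 0.256 FPKM in the E9.5 PGC libraries and 22.4 and 19.3 FPKM in the PGCLC libraries (log2 difference 3.49, adjusted p = 0.0456). Ehhadh was at 0.0177 and 0.234 FPKM in PGCs and 11.4 and 6.61 FPKM in PGCLCs (log2 difference 3.12, adjusted p = 0.0481). Fabp3 was at 0.198 and 0.107 FPKM in PGCs and 40.6 and 15.3 FPKM in PGCLCs (log2 difference 4.50, adjusted p = 0.0273). All 4 rose from under 2 FPKM in PGCs, and Fabp3 was higher still in iPGCs, at 88.3 and 111 FPKM. The PGCLC libraries lay above both PGC libraries for 19 of the 30 members, against 33.4% of all genes, and below for none, against 11.8%. Against the median difference Acadvl and Fabp3 also passed, while Hadh (adjusted p = 0.0791) and Ehhadh (0.0829) did not. The median of the list was 0.86. Because the list was chosen with earlier results of these data known, its share of called members is no separate support. The carnitine shuttle did not pass, with Cpt1a at 0.0272 and 0.253 FPKM in PGCs and 32.9 and 5.09 FPKM in PGCLCs (adjusted p = 0.0769). Its transporter gene Slc25a20 was at 0 and 1.31 FPKM in PGCs and 37.9 and 10.1 FPKM in PGCLCs (adjusted p = 0.0644). The trifunctional protein showed no such pattern, since Hadha, its alpha subunit, was at 7.07 and 78 FPKM in PGCs and 68 and 13.9 FPKM in PGCLCs.

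Glycolysis and glucose transport genes gave no call among 22, although both PGCLC libraries were above both PGC libraries for 15 of them, against 33.4% of all genes, and below for none, against 11.8%. Their median was 0.67 relative to all genes. The enolase gene Eno1 was at 36.8 and 48.7 FPKM in the E9.5 PGC libraries and 145 and 149 FPKM in the PGCLC libraries (adjusted p = 0.0631). The lactate dehydrogenase gene Ldhb was at 78.8 and 29.9 FPKM in PGCs and 354 and 226 FPKM in PGCLCs (adjusted p = 0.0672). The glucose transporter gene Slc2a1 was at 39.6 and 35.4 FPKM in PGCs and 155 and 112 FPKM in PGCLCs (adjusted p = 0.0703). In each the groups were apart, and none passed. Ldha, at 69.1 and 82 FPKM in PGCs and 45.3 and 131 FPKM in PGCLCs, overlapped between groups. Of 26 oxidative phosphorylation genes none was called, and the median was 0.22. Cyc1, of complex III, was at 17.3 and 77.8 FPKM in PGCs and 224 and 101 FPKM in PGCLCs, with PGCLCs higher. Ndufb8, of complex I, was at 75.7 and 86.6 FPKM in PGCs and 25.9 and 44.4 FPKM in PGCLCs, with PGCLCs lower.

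Lipoprotein genes contributed 2 rises among 20 cholesterol and lipoprotein genes, against 1.06% of all genes called. Neither passed against the median difference (adjusted p = 0.076 for Apoe and 0.0654 for Apoc1, limma). Apoe, which carries cholesterol between cells, stood at 7.1 and 12.7 FPKM in the E9.5 PGC libraries and 238 and 67 FPKM in the PGCLC libraries (log2 difference 3.59, adjusted p = 0.042). Its genomic neighbour Apoc1 was at 1.09 and 12 FPKM in PGCs and 171 and 129 FPKM in PGCLCs (log2 difference 4.84, adjusted p = 0.042). Both rose from levels of at least 1 FPKM in each PGC library. No other member of the list was called, and its median was 0.07.

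**Figure D5:**
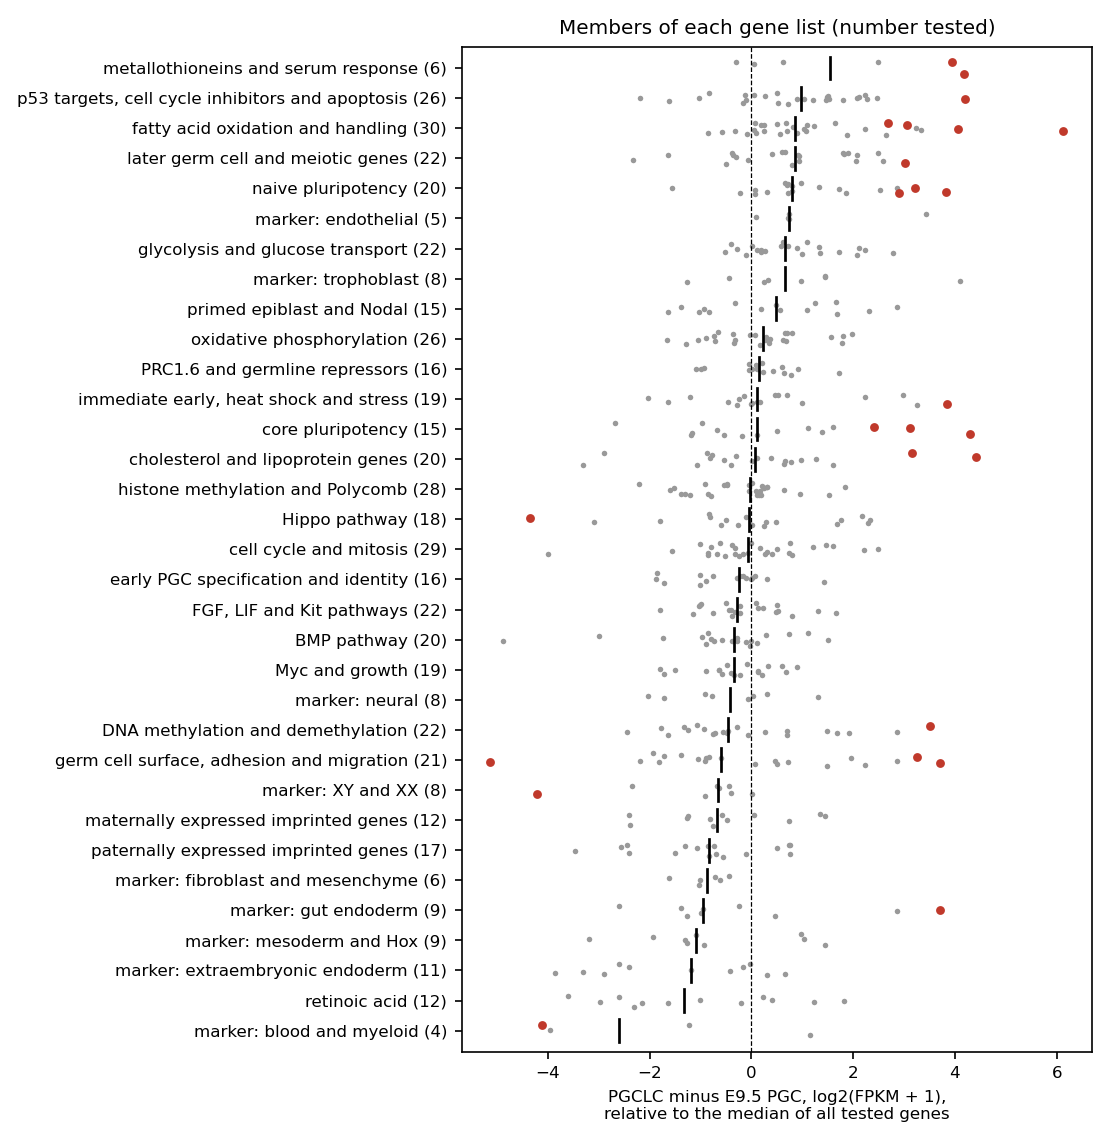
Each point is the difference of 1 tested gene in log2(FPKM + 1), PGCLC minus E9.5 PGC, relative to the median of all tested genes. Each row is 1 gene list with the number tested in brackets, red points are called genes, and the black bar is the median of the list. The 5 highest medians are those of the metallothionein, p53, fatty acid, later germ cell and naive pluripotency lists, and the early PGC list sits at -0.25 with no called gene.

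Metallothioneins buffer zinc and copper and respond to metals and glucocorticoids. Mt2 was at 9.45 and 3.01 FPKM in the E9.5 PGC libraries and 162 and 110.3 FPKM in the PGCLC libraries (log2 difference 4.38, adjusted p = 0.0165), with iPGCs at 614 and 973 and EGCs at 296 and 419.6 FPKM, so every cultured library was far above both PGC libraries. Mt1 was at 38 and 0.632 FPKM in PGCs and 82.4 and 43 FPKM in PGCLCs, with PGC libraries far apart, and did not pass (adjusted p = 0.241). Sgk1, a serum and glucocorticoid induced kinase, was at 7.01 and 0.26 FPKM in PGCs and 88.3 and 66.7 FPKM in PGCLCs (log2 difference 4.61, adjusted p = 0.0481). Of 6 tested members of this short list, 2 rose, against 1.06% of all genes called, with a median of 1.55. Mt2 also passed against the median difference, and Sgk1 did not (adjusted p = 0.0797). The promoters of Mt1 and Mt2 are shown because both hold the core of the metal response element, TGCACNC or TGCGCNC, on either strand, which is in capitals (RefSeq, GRCm38.p6). TGCACNC was found 2 times in each promoter and TGCGCNC 1 time in Mt1 and 2 times in Mt2. Of all promoters, 12.6% held TGCACNC, 15.4% held TGCGCNC and 25.7% held at least 1 of them.
Mt1 promoter (chr8:94178839-94179138, plus strand): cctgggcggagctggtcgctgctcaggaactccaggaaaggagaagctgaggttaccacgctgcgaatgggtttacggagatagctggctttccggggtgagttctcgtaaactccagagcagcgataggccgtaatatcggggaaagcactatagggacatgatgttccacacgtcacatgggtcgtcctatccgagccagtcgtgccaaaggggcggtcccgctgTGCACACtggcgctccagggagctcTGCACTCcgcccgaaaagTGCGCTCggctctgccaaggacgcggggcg
Mt2 promoter (chr8:94172368-94172667, plus strand): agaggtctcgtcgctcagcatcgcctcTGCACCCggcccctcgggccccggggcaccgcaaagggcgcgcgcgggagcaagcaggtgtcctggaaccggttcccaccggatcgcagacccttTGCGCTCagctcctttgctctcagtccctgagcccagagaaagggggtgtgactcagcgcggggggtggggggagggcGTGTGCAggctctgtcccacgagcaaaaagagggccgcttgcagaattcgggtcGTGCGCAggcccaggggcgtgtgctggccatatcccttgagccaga

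Targets of p53, cell cycle inhibitors and apoptosis genes had 1 called member of 26, against 1.06% of all genes. Both PGCLC libraries lay above both PGC libraries for 13 of them, against 33.4% of all genes, and the list had a median of 0.97. Ccng1, a cyclin induced by p53, was at 0.488 and 0.396 FPKM in the E9.5 PGC libraries and 44 and 27.2 FPKM in the PGCLC libraries (log2 difference 4.63, adjusted p = 0.0165). Perp, a p53 target of the cell membrane, was at 0.804 and 2.9 FPKM in PGCs and 18.7 and 19 FPKM in PGCLCs (adjusted p = 0.0703). The death gene Pmaip1 (Noxa) was listed at 0 in either PGC library against 5.28 and 4.52 FPKM in PGCLCs (adjusted p = 0.0756). Neither of these passed, and Trp53 itself, at 73.4 and 137 FPKM in PGCs and 143 and 109 FPKM in PGCLCs, overlapped between groups. Of 19 immediate early, heat shock and stress genes, 1 was called, against 1.06% of all genes, and the median was 0.11. Ddit4, an mTOR inhibitor induced by stress, was at 0.19 and 0.102 FPKM in PGCs and 38 and 11.8 FPKM in PGCLCs (log2 difference 4.29, adjusted p = 0.0357), and did not pass against the median difference (adjusted p = 0.059). Ddit3 (Chop), of the unfolded protein response, was at 0 and 0.0921 FPKM in PGCs and 22.9 and 6.65 FPKM in PGCLCs (adjusted p = 0.0731). The small heat shock gene Hspb1 was at 0.265 and 3.87 FPKM in PGCs and 25.3 and 25.7 FPKM in PGCLCs (adjusted p = 0.0613). The immediate early gene Fos was low in all 4 libraries, at 3.14 and 0 FPKM in PGCs and 0 and 2.99 FPKM in PGCLCs.

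Cell cycle genes gave no call among 29 (median -0.06), and neither did 19 Myc and growth genes (median -0.34). The mitotic kinase gene Cdk1 was at 4.76 and 9.74 FPKM in PGCs and 72.6 and 47.8 FPKM in PGCLCs (adjusted p = 0.0551). The cyclin gene Ccnd2 was at 21.8 and 5.31 FPKM in PGCs and 0 and 0.0329 FPKM in PGCLCs (adjusted p = 0.0552). Both were close to the threshold, in opposite directions, without overlap. Mki67, which marks cycling cells, was lower in both PGCLC libraries, at 69.1 and 63.1 FPKM in PGCs and 25.9 and 34.1 FPKM in PGCLCs, and did not pass. Mycn, a transcription factor of the Myc family, was lower as well and did not pass, at 43.8 and 51.8 FPKM in PGCs and 17.8 and 20.2 FPKM in PGCLCs.

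Among signalling pathways, no gene of the BMP, FGF with LIF and Kit, or retinoic acid lists was called, of 20, 22 and 12 tested. Their medians were -0.34, -0.28 and -1.32. Rgma, a BMP co-receptor, was at 28.7 and 97.5 FPKM in the E9.5 PGC libraries and 0.0516 and 4.88 FPKM in the PGCLC libraries (log2 difference -4.44, adjusted p = 0.0685). The BMP target gene Id1, at 1.43 and 4.28 FPKM in PGCs and 2.46 and 4.93 FPKM in PGCLCs, and the ligand gene Bmp4, at 1.26 and 12.7 FPKM in PGCs and 22.4 and 10.3 FPKM in PGCLCs, overlapped between groups. The retinoic acid binding protein gene Crabp1 was at 65.6 and 22.1 FPKM in PGCs and 3.94 and 8.2 FPKM in PGCLCs. Its paralog Crabp2 was at 6.67 and 26.1 FPKM in PGCs and 0 and 1.57 FPKM in PGCLCs (adjusted p = 0.0881). Both genes were lower in both PGCLC libraries and did not pass, whereas the receptor gene Rara was higher, at 3.95 and 2.36 FPKM in PGCs and 11.8 and 12 FPKM in PGCLCs. In the Hippo pathway, which restrains Yap, 1 of 18 genes was called, against 1.06% of all genes. The kinase gene Lats2 was at 29.2 and 20.8 FPKM in PGCs and 0.242 and 1.36 FPKM in PGCLCs (log2 difference -3.91, adjusted p = 0.0378), with iPGCs at 1.39 and 0.637 and EGCs at 0.956 and 1.27 FPKM. Only the PGC libraries of the series were above 2 FPKM for Lats2, while its paralog Lats1 was at 3.28 and 2.08 FPKM in PGCs and 2.58 and 4.81 FPKM in PGCLCs. Amot, a scaffold that binds Yap, was at 13.6 and 9.71 FPKM in PGCs and 0.519 and 1.58 FPKM in PGCLCs (adjusted p = 0.0809).

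Of 21 tested genes for the surface, adhesion and migration of germ cells, 2 rose and 1, Cd24a, fell (median -0.61), against 1.06% of all genes called. The tetraspanin gene Cd9 was at 0.959 and 0.369 FPKM in the E9.5 PGC libraries and 18.4 and 22 FPKM in the PGCLC libraries (log2 difference 3.69, adjusted p = 0.0273). The tight junction gene Cldn4, which is also on the gut endoderm list, was at 0.0449 and 0.143 FPKM in PGCs and 23.9 and 14.1 FPKM in PGCLCs (log2 difference 4.15, adjusted p = 0.0165). Both were at under 1 FPKM in PGCs and above 14 FPKM in PGCLCs, and higher in iPGCs, at 31.1 and 47.9 and 59.2 and 55.7 FPKM. Of 9 tested gut endoderm markers Cldn4 was the 1 called. The 18 markers summed to 77.8 and 63.6 FPKM in PGCs and 161 and 134 in PGCLCs, although the median of the 9 tested was -0.95 relative to all genes. Both PGCLC libraries were above both PGC libraries for 3 of the 9 and below for 3, against 33.4% and 11.8% of all genes. The higher sums thus do not describe the typical marker of this list. Defining members such as Foxa3, Nepn and Pyy were listed at 0 in all 4 libraries, and the part of this list in the result was not tested. Epithelial Cdh1, at 16.1 and 25.2 FPKM in PGCs and 34.7 and 45.1 FPKM in PGCLCs, was higher in both PGCLC libraries and did not pass. Mesenchymal Cdh2, at 6.44 and 0.911 FPKM in PGCs and 0 and 0.265 FPKM in PGCLCs, was lower in both and did not pass.

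The largest rises outside these lists were of mixed function. Mylpf, the fast skeletal muscle regulatory light chain, was at 0.634 and 0 FPKM in the E9.5 PGC libraries and 833 and 139.7 FPKM in the PGCLC libraries (log2 difference 8.07, SE 0.98, adjusted p = 0.0165). Its 2 PGCLC libraries differed widely but each was far above PGCs, and iPGCs were at 278 and 243 and EGCs at 48.4 and 314 FPKM. Uap1l1, related to an enzyme of amino sugar metabolism, was at 0 and 0.952 FPKM in PGCs and 119.6 and 55.1 FPKM in PGCLCs (log2 difference 5.88, adjusted p = 0.0165). Pold2, given above, differed by 5.59 (adjusted p = 0.0165). The autophagy receptor gene Calcoco2 was at 0.0351 and 2.47 FPKM in PGCs and 99.9 and 64.2 FPKM in PGCLCs (log2 difference 5.42, adjusted p = 0.0273). Calcoco2 was also near 0 in EGCs, at 0.0414 and 1.37 FPKM, while iPGCs lay between, at 13.6 and 27.3 FPKM. Sept1, a septin, was at 0 and 0.854 FPKM in PGCs and 78.7 and 36.9 FPKM in PGCLCs (log2 difference 5.34, adjusted p = 0.0266) and overlaps Zfp553 on the opposite strand.

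Rpp25, a subunit of RNase P, was at 0.201 and 0.142 FPKM in PGCs and 45.1 and 33.8 FPKM in PGCLCs (log2 difference 5.10, adjusted p = 0.0399). Upp1, which breaks down uridine, was at 0.22 and 0.105 FPKM in PGCs and 22.5 and 49.4 FPKM in PGCLCs (log2 difference 4.89, adjusted p = 0.0197). Upp1 reached its highest levels in EGCs, at 115 and 70.1 FPKM. Cldnd1, a claudin domain protein, was at 0.159 and 0.858 FPKM in PGCs and 39.7 and 41.4 FPKM in PGCLCs (log2 difference 4.82, adjusted p = 0.0165). Cox7a1, a muscle form of a cytochrome oxidase subunit, was at 3.35 and 4.9 FPKM in PGCs and 257 and 75.2 FPKM in PGCLCs (log2 difference 4.79, adjusted p = 0.0165). In Cox7a1 1 PGCLC library was well above the other, and both were above PGCs. Xbp1, the transcription factor of the unfolded protein response, was at 0.284 and 0.131 FPKM in PGCs and 22.7 and 42.2 FPKM in PGCLCs (log2 difference 4.73, adjusted p = 0.0224). The LIM domain gene Crip1 was at 2.95 and 1.08 FPKM in PGCs and 71.2 and 76.8 FPKM in PGCLCs (log2 difference 4.71, adjusted p = 0.0481). The biliverdin reductase gene Blvrb was listed at 0 in either PGC library, against 23.6 and 26.6 FPKM in PGCLCs (adjusted p = 0.0383). The naming rule required that the groups did not overlap for these genes. Rpp25, Crip1 and Blvrb did not pass against the median difference (adjusted p = 0.0634, 0.0791 and 0.0634, limma).

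Falls were fewer, and in all of them but Cd24a and Tmem29 both PGCLC libraries were under 2 FPKM. Clip3, a microtubule-associated linker protein, was at 29.1 and 51.6 FPKM in the E9.5 PGC libraries and 0 and 0.0652 FPKM in the PGCLC libraries (log2 difference -5.27, adjusted p = 0.042). It was present in iPGCs, at 5.18 and 21.3 FPKM, and in EGCs, at 2.49 and 15 FPKM. Fndc3c1, an X-linked fibronectin domain gene, was at 75.5 and 17.1 FPKM in PGCs and 0.0413 and 0.262 FPKM in PGCLCs (log2 difference -5.02, adjusted p = 0.0492), and did not pass against the median difference (adjusted p = 0.0586). The corepressor gene Runx1t1 was at 11.5 and 22.2 FPKM in PGCs and 0.0728 and 0.0303 FPKM in PGCLCs (log2 difference -4.02, adjusted p = 0.0383). Tmem29, also X-linked, was at 50.0 and 40.3 FPKM in PGCs and 1.42 and 3.47 FPKM in PGCLCs (log2 difference -3.80, adjusted p = 0.0273). Both PGC libraries were well above both PGCLC libraries for each of them. The stem cell surface gene Prom1 was at 16.9 and 17.9 FPKM in PGCs and 0.0937 and 1.16 FPKM in PGCLCs (log2 difference -3.58, adjusted p = 0.0437). It was intermediate in EGCs, at 11.1 and 6.99 FPKM. The kinase gene Lrrk2 was at 19.8 and 16.7 FPKM in PGCs and 1.47 and 0.379 FPKM in PGCLCs (log2 difference -3.38, adjusted p = 0.0481), with every library outside the PGC group under 2 FPKM.

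A further 3 falls have values that bear on which cells were in the libraries. S100a9, a calcium-binding protein of neutrophils, reached 15.6 and 8.77 FPKM in the PGC libraries and was listed at 0 in the 6 other libraries of the series (limma, adjusted p = 0.0273). It entered the test only through the PGC libraries, and the 6 at 0 add no spread, so its p-value is no separate support. Gp49a, a myeloid and mast cell receptor gene, was at 21.8 and 5.42 FPKM in PGCs and 0 and 0 FPKM in PGCLCs (adjusted p = 0.0481). Of 4 tested blood and myeloid markers, S100a9 was the 1 called, against 1.06% of all genes. Fcer1g, at 21.4 and 4.85 FPKM in PGCs and 0 and 0 FPKM in PGCLCs, was close (adjusted p = 0.0545). Xist, the RNA that coats the inactive X chromosome, was at 21.4 and 13.5 FPKM in the E9.5 PGC libraries and 0.641 and 0.0592 FPKM in the PGCLC libraries (log2 difference -3.77, adjusted p = 0.0481) and overlaps Tsix on the opposite strand. The Y-linked genes Eif2s3y, at 12.7 and 50.9 FPKM in PGCs and 21.3 and 30.5 FPKM in PGCLCs, and Ddx3y, at 2.99 and 2.65 FPKM in PGCs and 2.88 and 1.81 FPKM in PGCLCs, were present in every one of the 4 libraries, so the PGC libraries held both Xist and Y-linked RNA. The sex of the embryos and cells is not given in the labels, and its part in the fall of Xist was not tested.

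The iPGCs came from the same BVSC strain at the same passage. Their mean difference from PGCLCs uses no PGC library, but the spread in the test was estimated from all 8 libraries, PGCs included. PGCLCs differed from iPGCs in 2 of 11083 genes (0.0180%, limma, adjusted p under 0.05), with 519 at an unadjusted p under 0.05. Both are small RNA loci, outside the naming rule and named after their values were seen. Such loci are shorter than a library fragment, so their FPKM is uncertain. Scarna8, a small Cajal body RNA within Haus6, was listed at 0 in both iPGC libraries and was at 64.8 and 141 FPKM in PGCLCs (adjusted p = 0.028). Mir3091 was at 1016 and 315 FPKM in iPGCs and 0 and 0 FPKM in PGCLCs (adjusted p = 0.00549). For many of the genes above, such as Dnmt3l, Mt2, Tdgf1 and Cd24a, both iPGC libraries lay outside the PGCLC range, as the values beside them show, and none of the genes named for the comparison with PGCs passed the test between PGCLCs and iPGCs. Comparisons of iPGCs or EGCs with PGCs rest on the same 2 PGC libraries as the one reported here, so the levels of those groups are set side by side and their agreement is not counted.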

How the data were processed

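The authors deposited FPKM in 1 table with a column for each of 8 libraries, in 4 groups of 2. Per the labels, RNA was amplified with an Ovation kit and sequenced as 50-base single-end reads in 2 lanes, and the submitters' processing notes list Cufflinks, TopHat2 and GRCm38 (mm10). No tool version, annotation, read total or use of strand is given in the sources used here. Of several entries for 1 identifier, the one with the largest FPKM sum over the libraries was kept, which dropped 18 of 20171 entries. This concerned 15 identifiers, and for 13 of them the values of the entries differed. Of 20153 identifiers, 19747 were found in GENCODE M21, which gave coordinates. Values under 0.000001 FPKM were read as 0, and folds are not given against groups at 0. Genes reaching 1 FPKM in 2 libraries or more entered the test on log2(FPKM + 1), pseudocount 1, with limma 3.58.1 (trend, robust; R 4.3.3) in 1 fit of all 8 libraries with 4 residual degrees of freedom, two-sided, with Benjamini-Hochberg adjustment and a threshold of 0.05. Log2 differences on this scale understate changes of low genes. Some list members are not reported here. Members and lists were chosen with earlier results of these data known. Named genes are the 15 largest called rises and up to 15 largest falls (11 qualified) whose higher group averaged 10 FPKM or more without overlap, the 4 markers, called list members and up to 6 examples per list; predicted, ribosomal protein and small RNA genes were skipped. Where a list has more examples here, the extra ones were chosen after their values were seen. In simulated data for this comparison (5 draws of 200 changed genes among 11083), 11.2% of changes of log2 2, 48.4% of 3 and 86.8% of 4 were recovered, none of 1, and 7.11% of calls were false. The simulation gave a gene the same normal spread in every group and no median shift. The real replicates correlated at 0.71 for PGCs, 0.794 for PGCLCs, 0.784 for EGCs and 0.882 for iPGCs. The simulated shares therefore need not hold for the real libraries.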

Additional observations from a re-analysis of the deposited data

How the results depend on the processing

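Counts of called genes moved with most settings, and 0 to 39 of the 43 called genes named by the rule stayed called. The direction of these 43 was the same in each of the 19 settings tried. Their groups did not overlap and their differences were large, so these settings could hardly reverse a direction. The unchanged direction is therefore no separate sign of stability. Against the reported 117 genes (104 higher, 13 lower), equal library medians gave 54 (36 and 18), quantile normalization 36 (29 and 7), a pseudocount of 0.1 gave 183 (171 and 12) and a pseudocount of 5 gave 32 (25 and 7). A filter at 5 FPKM gave 117 (109 and 8), no filter 0 (0 and 0; 2231 at an unadjusted p under 0.05 in limma) and a fit of only the groups compared 0 (0 and 0; 1438 unadjusted). Testing against the median difference, a setting chosen after the data had been seen, gave 49 (35 and 14). Leaving out 1 library gave 0 to 289 genes, 0 to 224 higher and 0 to 65 lower; the extremes were PGC library 2 (289) and either PGCLC library (0). In such a fit the lone library of a group is assumed to vary like the other groups. A count without robust variance (81) and without trend (130) stayed within 1.5 times the reported one. The median difference of all genes, 0.44, became -0.10 with equal library medians, -0.04 with quantile normalization, 0.17 without a filter, 0.62 with a pseudocount of 0.1 and 0.21 with 5. For PGCLCs against iPGCs the 2 calls became 0 without a filter (749 unadjusted in limma), 4 with only the groups compared, 1 with a pseudocount of 5, 1 with quantile normalization, and 0 to 5 with 1 library left out. The cause of these changes was not tested. A fit with the replicate number as a block called 27 genes (25 and 2) against PGCs and 1 against iPGCs. The numbers did not pair the libraries, since deviations of same-numbered libraries from their group means correlated at -0.0295 between PGCs and PGCLCs and at 0.0582 between iPGCs and PGCLCs, across genes. With 2 libraries per group, 11.2% of changes of log2 2 were recovered in the simulation, where all groups had equal spread. Real changes of that size may mostly go uncalled, and read totals that would bound low values are not stated.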

Other observations

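Called genes that the naming rule did not reach, and which are given here after their values were seen, include several known from germ cells and early embryos. Ooep, of the subcortical maternal complex of the egg, was at 0.406 and 0.0574 FPKM in the E9.5 PGC libraries and 23.1 and 14.6 FPKM in the PGCLC libraries (log2 difference 3.99, adjusted p = 0.0273). The testis form of cytochrome c, Cyct, was at 4.19 and 7.05 FPKM in the E9.5 PGC libraries and 102 and 82.1 FPKM in the PGCLC libraries (log2 difference 3.84, adjusted p = 0.0165), and Trap1a, an X-linked tumour rejection antigen gene, at 1.05 and 0.116 FPKM in PGCs and 38.1 and 31.2 FPKM in PGCLCs (log2 difference 4.55, adjusted p = 0.0165). Usp26, an X-linked ubiquitin protease of the testis, was listed at 0 in the PGC libraries, against 10.6 and 10.9 FPKM in PGCLCs (adjusted p = 0.0433). In each of these both PGCLC libraries were far above both PGC libraries, and Cyct and Trap1a were as high in iPGCs, at 104 and 96 and 38.5 and 36.8 FPKM. The galactokinase gene Galk1 was at 9.44 and 2.6 FPKM in the E9.5 PGC libraries and 127 and 140.2 FPKM in the PGCLC libraries (log2 difference 4.45, adjusted p = 0.0165) and the urea cycle enzyme gene Ass1 was at 1.34 and 0.478 FPKM in PGCs and 18.3 and 12.3 FPKM in PGCLCs (log2 difference 3.11, adjusted p = 0.0492). Prkch, a protein kinase C, was at 0.0707 and 0.135 FPKM in PGCs and 8.48 and 5.59 FPKM in PGCLCs (log2 difference 2.84, adjusted p = 0.0481) and under 1 FPKM in every iPGC and EGC library, at 0.465 and 0.231 and 0 and 0.018 FPKM. The acute phase gene Saa3 was listed at 0 in all libraries other than the PGCLC ones, where it was at 13.8 and 5.18 FPKM (adjusted p = 0.0468). Prkch and Saa3 reached 1 FPKM only in the PGCLC libraries and entered the test through them. The other libraries, at or near 0, add little spread, so these p-values are no separate support.

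Of the 13 called falls, 4 were genes on the X chromosome, against 3 of the 104 rises and 3.41% of the tested genes. Besides Xist, Fndc3c1 and Tmem29 this was Aff2, a nuclear factor, at 8 and 7.03 FPKM in the E9.5 PGC libraries and 0.331 and 0.116 FPKM in the PGCLC libraries (log2 difference -2.80, adjusted p = 0.0479). The PGC libraries were the highest of the series for Aff2, Tmem29 and Xist, while EGC line 4 reached 17.5 FPKM for Fndc3c1.

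Called differences at 3 small RNA loci were large, but such loci are shorter than a library fragment, so their FPKM is uncertain. Mir5110, within Bcas3 on the opposite strand, was at 62.9 and 1197 FPKM in PGCs and was listed at 0 in the other 6 libraries (adjusted p = 0.0273). It entered the test only through the PGC libraries, and the 6 at 0 add no spread, so its p-value is no separate support. Mir3063, within Igf2bp1 on the same strand, was listed at 0 in PGCs, against 317 and 206 FPKM in PGCLCs, 1249.8 and 615 in iPGCs and 1119.9 and 384 in EGCs (adjusted p = 0.00443). Scarna8 was listed at 0 in PGCs and iPGCs and was at 64.8 and 141 FPKM in PGCLCs and 154 and 58.6 in EGCs (adjusted p = 0.0165 against PGCs). Reads at Mir3063 and Scarna8 cannot be told apart from those of the host transcript. The mature forms of both microRNAs are given 5′ to 3′ (RefSeq), with the seed, bases 2 to 8, in capitals; no seed is shared.
mmu-miR-5110: gGAGGAGGuagagggugguggaauu
mmu-miR-3063-5p: uGGAGAUCagguuugcacacu
mmu-miR-3063-3p: uGAGGAAUccugaucucucgcc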
